A study of Mus musculus with 12 samples.

Results

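The genes for 8 transcription factors and cofactors shared by the 2 kinds of cochlear hair cell, Atoh1, Pou4f3, Gfi1, Lhx3, Barhl1, Eya1, Gata3 and Nhlh1, were followed in pools of inner hair cells (IHCs) and outer hair cells (OHCs). The 8 genes were taken by name and matched through GENCODE gene names to the identifiers of the count files, and all 8 were found among 55416 genes. Bulk RNA-seq covered 12 libraries, 6 of IHCs and 6 of OHCs, from the organ of Corti of mice at postnatal day 0. The genotype is labelled WT in both groups, and the sort rested on reporter alleles: Atoh1-GFP, a GFP-tagged Atoh1 allele, Insm1-GFP-Cre, and R26-TdTomato, which Cre switches on. IHCs were taken as GFP positive cells, and OHCs as cells that also carried tdTomato, so that Cre from the Insm1 locus defined the OHC pools. Each library is a pool of sorted cells, and the number of pups behind an RNA pool is not given in the sources used here. Atoh1 drives the GFP by which both pools were gated, so its level is not independent of the sort.

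Hair cells arise from a prosensory domain of the otic epithelium. The basic helix-loop-helix (bHLH) factor ATOH1 starts their differentiation, and the POU domain factor POU4F3 and the zinc finger repressor GFI1 follow it and are needed for hair cells to survive. EYA1, a phosphatase that acts as a transcriptional co-activator, and the zinc finger factor GATA3 act earlier, in the otic placode and the prosensory domain, and stay on in hair cells. LHX3 and BARHL1 are homeodomain factors of differentiating hair cells, and NHLH1 is a bHLH factor known from newly born neurons. Loss of several of these factors causes deafness in mice or in people.

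Of the 8 genes, 2 differed between the cell types and 6 did not pass the test, which does not show that these are equal. Gata3 was 2.83-fold and Gfi1 2.03-fold higher in IHCs. The direction was the same, without passing the test, for Barhl1, Lhx3, Atoh1, Eya1 and Pou4f3, at 1.32-fold to 1.83-fold, and Nhlh1 had near-equal means. Across all 13269 genes tested, 3.81% were called higher in IHCs and 2.44% higher in OHCs, against 2 and 0 of the 8 genes. The median log2 fold change of OHCs against IHCs, in which a negative value marks a higher level in IHCs, was -0.65 over the 8 genes and -0.04 over all genes tested. Of the 8 genes, 7 had a negative value with an unadjusted p under 0.05, as did 12.4% of all genes tested. DESeq2 and a fit without a filter on low counts put 45.7% and 49.3% of all calls on the IHC side, against 61.0% here.

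Promoters are shown for the 2 genes that differed, Gfi1 and Gata3. Those of Atoh1 and Nhlh1 are shown as genes that did not pass the test. Barhl1 is shown because its window holds an E-box, as also does a window of Lhx3 that is not shown. Sequences are those of RefSeq, from a table of build GRCm38.p6, which had entries for 6 of the 8 genes, up to 250 bases before an annotated start and without bases that lie in an annotated exon of the gene. They were located on GRCm39 by exact match and are written 5′ to 3′ on the strand of the gene. Capitals mark matches to 4 short motifs, searched on both strands. The E-box forms CAGCTG and, as the other form, CATCTG are bound by bHLH factors. The motif AGATAA is that of GATA factors. The letters AAATCA hold the core of the GFI1 motif. No match overlaps another in the windows shown.
Gfi1, chr5:107872210-107872459, minus strand: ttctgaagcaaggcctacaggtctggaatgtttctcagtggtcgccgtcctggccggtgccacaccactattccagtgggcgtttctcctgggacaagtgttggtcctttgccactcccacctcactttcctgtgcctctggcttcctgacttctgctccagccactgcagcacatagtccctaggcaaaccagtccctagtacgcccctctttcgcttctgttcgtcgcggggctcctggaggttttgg
Gata3, chr2:9883560-9883661, minus strand: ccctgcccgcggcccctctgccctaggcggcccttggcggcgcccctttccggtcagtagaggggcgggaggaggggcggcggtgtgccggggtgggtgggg
Atoh1, chr6:64705859-64706108, plus strand: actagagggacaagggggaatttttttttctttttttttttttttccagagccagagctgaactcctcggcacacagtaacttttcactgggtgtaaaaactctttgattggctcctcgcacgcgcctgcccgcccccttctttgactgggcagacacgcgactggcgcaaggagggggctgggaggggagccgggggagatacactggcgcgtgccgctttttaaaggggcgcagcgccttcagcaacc
Nhlh1, chr1:171885164-171885413, minus strand: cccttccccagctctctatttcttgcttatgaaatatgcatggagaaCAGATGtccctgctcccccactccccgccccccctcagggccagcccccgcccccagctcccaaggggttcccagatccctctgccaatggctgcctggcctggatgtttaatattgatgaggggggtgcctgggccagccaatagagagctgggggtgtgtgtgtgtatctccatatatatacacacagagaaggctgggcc
Barhl1, chr2:28806681-28806930, minus strand: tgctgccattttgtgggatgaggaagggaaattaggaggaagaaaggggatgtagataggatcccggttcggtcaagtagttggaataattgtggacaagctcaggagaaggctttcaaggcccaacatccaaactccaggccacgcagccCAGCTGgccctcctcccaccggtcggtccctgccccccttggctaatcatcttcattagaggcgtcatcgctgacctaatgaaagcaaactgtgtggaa

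The Barhl1 window holds CAGCTG at positions -99 to -94 from the start, a motif found in 13.0% of the 32851 promoters in the RefSeq table. The Nhlh1 window holds CAGATG, the reverse complement of CATCTG, at positions -203 to -198, and 14.4% of promoters hold CATCTG on either strand. The windows of Gfi1, Gata3 and Atoh1 hold no match to the 4 motifs, where AGATAA is found in 9.99% and AAATCA in 12.4% of promoters. Gfi1, Barhl1 and Lhx3 each have 2 RefSeq starts, and the window shown for Gfi1 lies before the downstream start. Of the windows not shown, that of Barhl1 holds AAATCA at positions -30 to -25 and CAGCTG at -15 to -10. The window before the downstream start of Lhx3 holds CATCTG at -215 to -210. The remaining windows of Gfi1 and Lhx3 hold no match. The window shown for Gata3 has 102 bases and lies within the annotated span of the gene. The 148 bases between it and the RefSeq start lie in annotated exons, and the full 250 bases hold no match either. The shares over all promoters are for 250 bases.

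IHC libraries held 31490204 to 44017309 counts on genes, and OHC libraries 29564827 to 39121988. Ribosomal RNA, nuclear and mitochondrial, took 21.5% to 56.9% of these counts in IHC libraries and 23.4% to 36.4% in OHC libraries. The highest share was in IHC replicate 1, whose TMM factor of 0.486 stood apart from those of the other libraries, at 0.902 to 1.23. Levels are given as CPM, the count of a gene scaled to the TMM-normalised size of its library. The labels were checked against marker genes: Tbx2, which specifies IHCs, had 145 ± 62.8 CPM in the IHC pools (SD, n = 6) and 6.04 ± 3.50 CPM in the OHC pools, and Insm1, an OHC factor, had 0.194 ± 0.183 and 52.7 ± 20.3 CPM. Cre from the Insm1 locus defined the OHC pools, so the level of Insm1 is not independent of the sort. Of the marker lists of the cell types, 4 of 4 IHC markers were higher in IHCs and 4 of 5 OHC markers, Insm1 among them, higher in OHCs. Each of the 8 genes had at least 2147 counts in every library, and the spread between pools is the error given with each value.

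Gata3 occupies positions 9861889 to 9894845 of chromosome 2 (GRCm39, minus strand). In IHC libraries it ran from 279 CPM to 661 CPM with a median of 430.3 CPM, and in OHC libraries from 111 CPM to 178 CPM with a median of 167 CPM. Every IHC library lay above every OHC library. The means were 437 ± 142 in IHCs and 154 ± 28.4 CPM in OHCs (SD, n = 6). By edgeR's quasi-likelihood test the log2 fold change was -1.50 (SE 0.23, adjusted p = 3.55e-04), where SE is its standard error and p is adjusted over all genes by the Benjamini-Hochberg method. The difference was called with each library left out in turn, with log2 fold changes between -1.60 and -1.36. Gata3 shares 303 exonic bases with the antisense gene Gm13256, which had at most 16 counts in a library, and 77 with Gata3un on its own strand, which had at most 230.

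Gfi1 occupies positions 107864523 to 107873902 of chromosome 5 (minus strand). It ran from 121 CPM to 291 CPM in IHCs with a median of 179 CPM, and from 75.5 CPM to 130.3 CPM in OHCs with a median of 87.4 CPM. The lowest IHC library fell within the range of the OHC libraries, and the other 5 lay above it. The means were 190.0 ± 56.2 in IHCs and 93.4 ± 19.97 CPM in OHCs (SD, n = 6), and the log2 fold change was -1.02 (SE 0.23, edgeR adjusted p = 0.0106). Gfi1 was called in each fit with 1 library left out, where the adjusted p reached 0.0313 without OHC replicate 6. It shares 327 exonic bases with the antisense gene A430072P03Rik, which had at most 63 counts in a library.

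Eya1 and Gata3 were the 2 of the 8 genes in which every IHC library lay above every OHC library, an arrangement found in 2.37% of all genes tested. Eya1, at 14239167 to 14380543 of chromosome 1 (minus strand), ran from 578 CPM to 780.1 CPM in IHCs with a median of 605 CPM. In OHCs it ran from 396 CPM to 554 CPM with a median of 467 CPM. The groups did not overlap, but the gap between them was small, and the means were 644 ± 79.0 in IHCs and 473 ± 61.9 CPM in OHCs (SD, n = 6). The log2 fold change of -0.45 (SE 0.17, edgeR adjusted p = 0.117) did not pass the threshold. DESeq2 gave an adjusted p of 0.0125 at the same fold change, so the call for Eya1 depends on the tool.

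**Figure D1:**
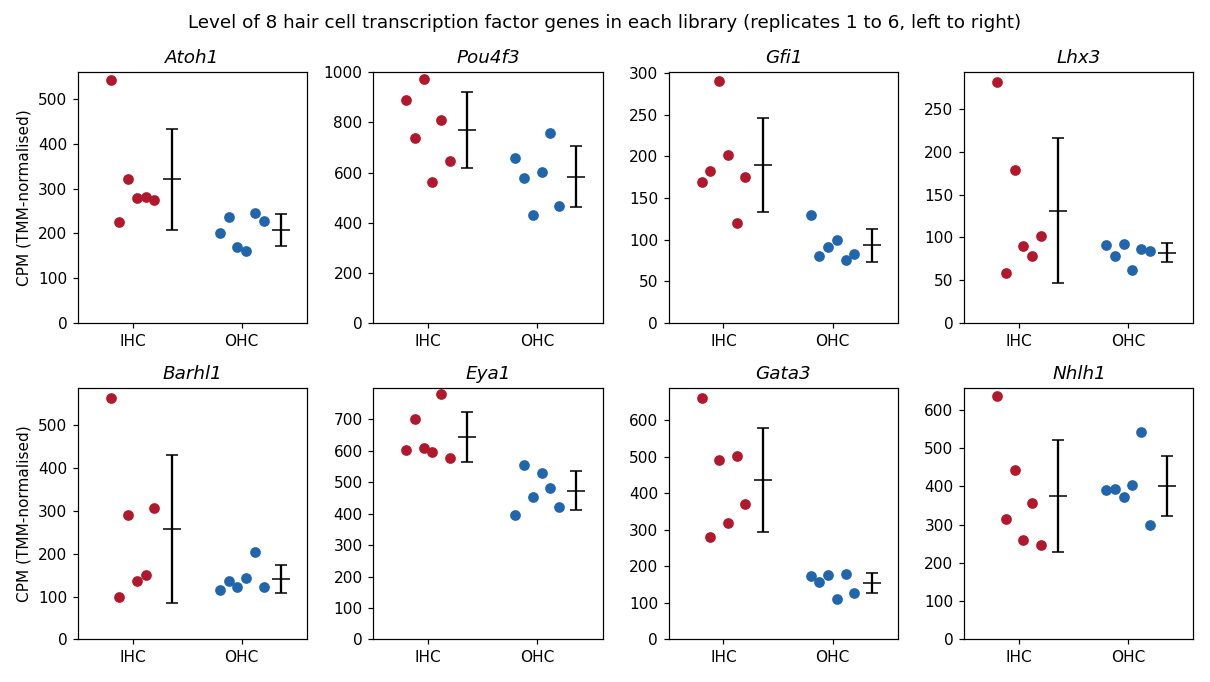
Level of each of the 8 genes in CPM (vertical axis, from 0) in the 6 IHC libraries (red) and 6 OHC libraries (blue), with the mean and SD as black bars. The groups do not overlap for Eya1 and Gata3, and IHC replicate 1 is the highest IHC library for Atoh1, Lhx3, Barhl1, Gata3 and Nhlh1.

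Atoh1, at 64706109 to 64708229 of chromosome 6 (plus strand), is a gene of 1 exon. Its IHC libraries ran from 226 CPM to 541 CPM (median 280.1 CPM) and its OHC libraries from 162 CPM to 245 CPM (median 215 CPM). One IHC library, replicate 2, fell within the OHC range, and replicate 1 stood far above the other IHC libraries. The means were 320.5 ± 112 in IHCs and 207 ± 35.8 CPM in OHCs (SD, n = 6). The log2 fold change of -0.63 (SE 0.22, edgeR adjusted p = 0.0957) became -0.43 without IHC replicate 1, with an adjusted p of 0.167. Pou4f3, at 42527433 to 42530354 of chromosome 18 (plus strand), overlapped more. It ran from 563 CPM to 974 CPM in IHCs (median 774 CPM) and from 430.3 CPM to 759 CPM in OHCs (median 589 CPM), with means of 769.8 ± 153 and 582 ± 122 CPM (SD, n = 6). In 3 of the 6 IHC libraries it lay above the OHC range. Its log2 fold change was -0.40 (SE 0.19, edgeR adjusted p = 0.224).

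The homeodomain genes Lhx3 and Barhl1, both on chromosome 2, varied most between IHC libraries. Lhx3, from 26090224 to 26098301 on the minus strand, ran from 58.3 CPM to 281 CPM in IHCs (median 96.1 CPM) and from 62.4 CPM to 92.9 CPM in OHCs (median 84.9 CPM). The means were 131 ± 84.2 and 82.3 ± 11.1 CPM (SD, n = 6), and in 3 of the 6 IHC libraries it lay above every OHC library. Its log2 fold change of -0.67 (SE 0.32, edgeR adjusted p = 0.224) became -0.31 without IHC replicate 1, with an adjusted p of 0.544. Barhl1, from 28797691 to 28806680 on the minus strand, ran from 99.1 CPM to 563 CPM in IHCs (median 221 CPM) and from 115 CPM to 205 CPM in OHCs (median 129.5 CPM). Again 3 IHC libraries lay above the OHC range, with 1 below it, and the means were 258 ± 172 and 141 ± 33.1 CPM (SD, n = 6). Its log2 fold change was -0.87 (SE 0.33, edgeR adjusted p = 0.128). Single libraries moved this value, since it was -0.50 without IHC replicate 1 (adjusted p = 0.317) and -1.04 without IHC replicate 2, where the adjusted p of 0.0486 passed the threshold. Lhx3 shares 188 exonic bases with the antisense gene Gm27196, whose highest count in a library was 662, and 117 with Gm75664, not used here. Barhl1 shares 39 with Ddx31 on the other strand, which had up to 1237 counts.

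Nhlh1, at 171879859 to 171885140 of chromosome 1 (minus strand), was the 1 gene of the 8 with a higher mean in OHCs. It ran from 246 CPM to 636 CPM in IHCs with a median of 336 CPM, and from 300.2 CPM to 543 CPM in OHCs with a median of 391 CPM. The OHC range lay inside the IHC range, and the means were 376 ± 146 and 400.4 ± 79.1 CPM (SD, n = 6). The log2 fold change was 0.09 (SE 0.23, edgeR adjusted p = 0.855), and changed sign to -0.026 without IHC replicate 6 and to -0.018 without OHC replicate 5.

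**Figure D2:**
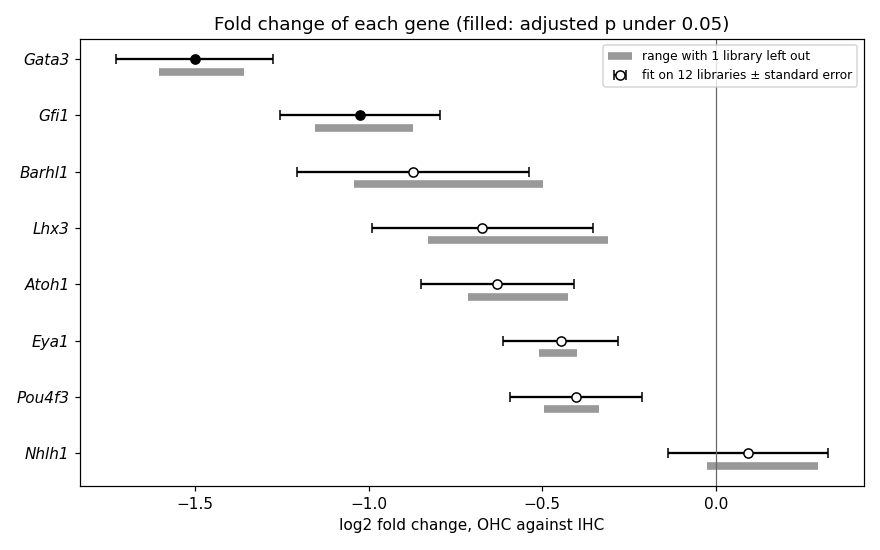
Log2 fold change of OHCs against IHCs (horizontal axis) for each gene, with its standard error as thin bars and the range over the fits that each leave out 1 library as grey bars. Filled points mark Gata3 (-1.50) and Gfi1 (-1.02), which passed the threshold, and the grey bars of Lhx3 and Barhl1 are the widest.

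The same libraries were often the highest for several genes. Of the IHC libraries, replicate 1 was the highest for 5 of the 8 genes and the lowest for 0, and replicate 2 was the lowest for 4. Of the OHC libraries, replicate 5 was the highest for 5 of the 8 genes, Atoh1, Pou4f3, Barhl1, Gata3 and Nhlh1. The SD of log2 CPM between IHC libraries ran from 0.17 for Eya1 to 0.93 for Barhl1, with a median of 0.45 over the 8 genes beside 0.53 over the 3216 tested genes with a mean of at least 50 CPM. Between OHC libraries it ran from 0.19 for Eya1 to 0.31 for Pou4f3, with a median of 0.28 beside 0.36. IHC replicate 1 also held the highest share of ribosomal RNA and the fewest other counts, 13565175. Among OHC libraries, replicate 5 held the highest share of ribosomal RNA, 36.4%, and the lowest TMM factor, 0.902. The part of this in the high values of these 2 libraries was not tested.

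Levels of different genes were compared per length, as TPM. This divides the counts of a gene by the union of its annotated exons and scales each library to the same sum. That sum includes ribosomal RNA, and TMM was not applied. TPM levels and their SDs therefore also vary with the ribosomal RNA share of a library, while the order within a library does not. Pou4f3 was the most abundant of the 8 genes in both cell types, at 715 ± 276 TPM in IHCs and 675 ± 154 TPM in OHCs (SD, n = 6), where it ranked 31 and 42 among all genes. Lhx3 was the least abundant, at 93.7 ± 45.9 TPM and 83.1 ± 21.3 TPM. In IHCs the order was Pou4f3, Atoh1, Nhlh1, Gata3, Eya1, Gfi1, Barhl1 and Lhx3. Within single IHC libraries, Pou4f3 exceeded Atoh1, Nhlh1 exceeded Gata3, and Barhl1 exceeded Lhx3 in 6 of 6 libraries. Atoh1 and Nhlh1 could not be ordered, with Atoh1 higher in 2 of 6 libraries, and neither could Gfi1 and Barhl1, with Gfi1 higher in 3 of 6.

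In OHCs Nhlh1 followed Pou4f3, at 490 ± 83.8 TPM, above Atoh1 at 294 ± 47.9 TPM in 6 of 6 libraries. Eya1 followed at 171 ± 31.0 TPM, below Atoh1 in 6 of 6 libraries with ranges that did not overlap, and also above Barhl1 in this way. Barhl1, Gata3, Gfi1 and Lhx3 then lay close together, from 107 ± 10.2 TPM to 83.1 ± 21.3 TPM, and neighbours kept their order in 2 to 4 of 6 libraries. Gata3 thus stood at place 4 in IHCs, with 225 ± 85.0 TPM, and at place 6 in OHCs, with 104 ± 29.6 TPM. When the longest transcript replaced the union of exons, 4 of the 8 genes kept their place in IHCs and 2 in OHCs, and Gata3 stood at the same place in both cell types. Eya1, with 34 annotated transcripts and a union of 8391 bases against 4500 in its longest transcript, then followed Pou4f3 in IHCs, and Pou4f3 and Nhlh1 in OHCs.

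**Figure D3:**
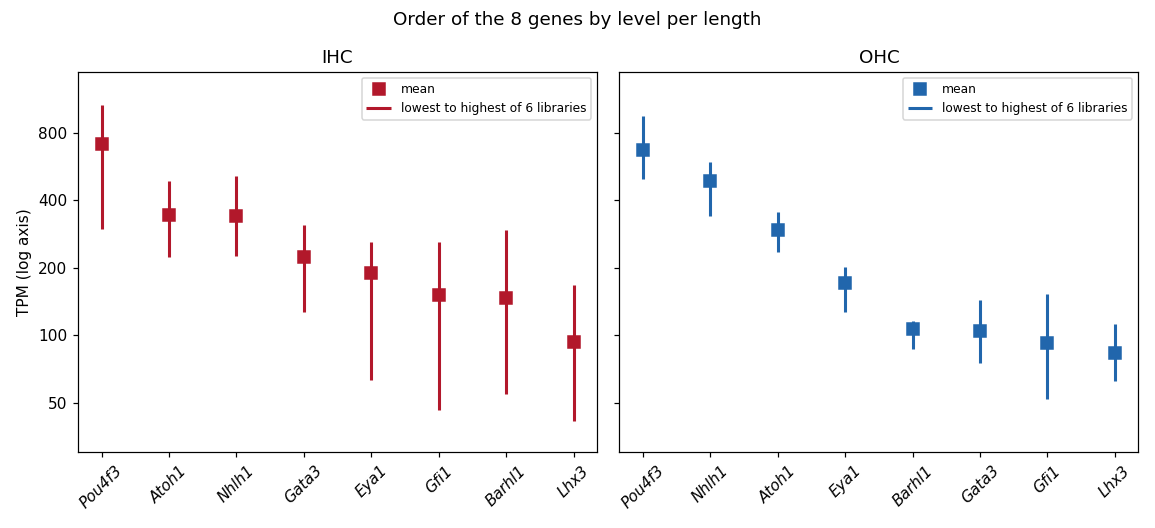
Level per length in TPM (vertical log axis) of the 8 genes in IHCs (left) and OHCs (right), in order of the mean, with squares for the mean and lines from the lowest to the highest of 6 libraries. Pou4f3 leads both panels at 715 and 675 TPM. Gata3 stands at place 4 in IHCs and 6 in OHCs on this measure of length, but at the same place in both when the longest transcript is used.

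Ratios within a library do not depend on how libraries are scaled. Each gene was therefore set against Pou4f3 in the same library, as a description without a test. The ratio of Gata3 to Pou4f3 ran from 0.378 to 0.744 in IHC libraries and from 0.185 to 0.409 in OHC libraries, and its geometric mean was 2.08-fold higher in IHCs. In 5 of the 6 IHC libraries it lay above every OHC library. The ratio of Gfi1 to Pou4f3 ran from 0.149 to 0.359 in IHCs and from 0.0995 to 0.214 in OHCs, a 1.51-fold difference in geometric mean, with 4 IHC libraries above the OHC range. For Barhl1, Atoh1, Lhx3 and Eya1 the ratios to Pou4f3 overlapped widely, and the geometric means were 1.18-fold, 1.14-fold, 1.05-fold and 1.03-fold higher in IHCs. With 1 library left out, the log2 difference of OHCs minus IHCs ran from -0.25 to 0.15 for Lhx3 and from -0.13 to 0.046 for Eya1, so neither had a fixed sign.

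Relative to Pou4f3, Nhlh1 went the other way. Its ratio ran from 0.381 to 0.717 in IHC libraries and from 0.591 to 0.867 in OHC libraries. A single OHC library exceeded the IHC range. With Myo7a, which encodes a hair cell myosin, as the reference in place of Pou4f3, the ratio of Nhlh1 ran from 0.441 to 0.650 in IHCs and from 0.608 to 1.17 in OHCs, and 5 OHC libraries lay above every IHC library. The ratio of Gata3 to Myo7a ran from 0.518 to 0.720 in IHCs and from 0.207 to 0.396 in OHCs, without overlap.

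Among all 28 pairs of the 8 genes, a description added after the data had been seen, the ratios of IHC and OHC libraries did not overlap in 3. The share of such pairs over all genes was not computed. Each of the 3 pairs held Gata3, which had the largest fold change of the 8 genes and did not overlap between the groups on its own. The ratio of Gata3 to Nhlh1 differed most, at 0.886 to 1.51 in IHC libraries and 0.276 to 0.472 in OHC libraries, a 3.06-fold difference in geometric mean. Atoh1 to Gata3 ran from 0.559 to 0.875 in IHCs and from 0.958 to 1.79 in OHCs. Lhx3 to Gata3 ran from 0.155 to 0.426 in IHCs and from 0.484 to 0.657 in OHCs.

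**Figure D4:**
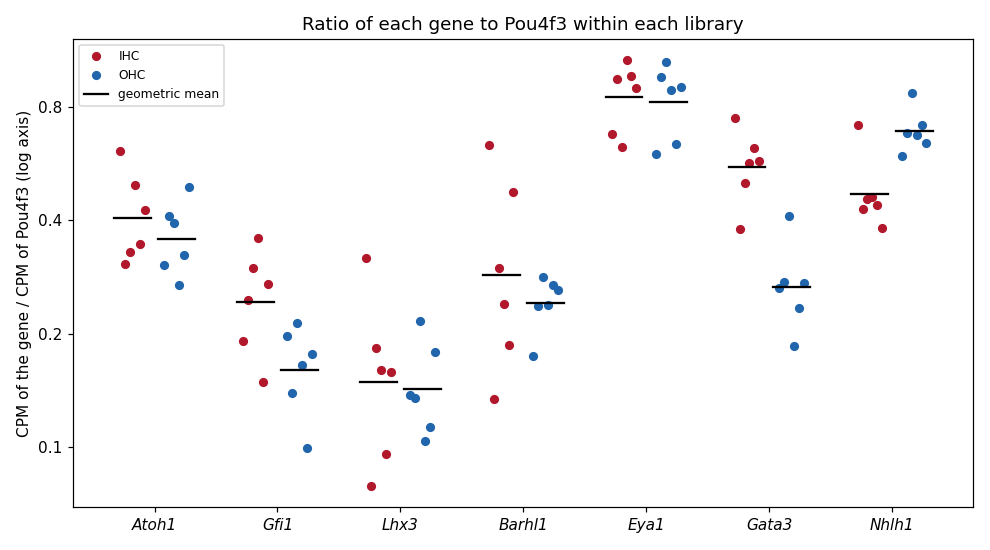
Ratio of the CPM of each gene to that of Pou4f3 in the same library (vertical log axis) for IHC libraries (red) and OHC libraries (blue), with black lines for the geometric means. Gata3 is higher relative to Pou4f3 in IHCs (0.553 against 0.266) and Nhlh1 in OHCs (0.690 against 0.470).

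For Gfi1 and Gata3, and for Atoh1 and Pou4f3, the genes with the nearest profile were named by the root mean square difference of log2 CPM over the 12 libraries, after each gene was centred on its own mean. For Gfi1 these were Paqr9, Ldlrad3 and Madd, at 0.20, 0.21 and 0.25, beside a median of 0.92 over 8093 genes with a mean of at least 10 CPM. For Gata3 they were Myo10, Espn and Arf3, at 0.25, 0.26 and 0.27, beside a median of 1.07. Espn encodes the actin bundling protein espin of stereocilia, and Myo10 an unconventional myosin of filopodia. For Atoh1 they included Tuba1b and Lnx2, at 0.19 and 0.20, and for Pou4f3 Cacna1d and Atxn7l3b, at 0.16 and 0.17. Cacna1d encodes the calcium channel of the hair cell synapse. Among the 8 genes themselves, the nearest pair was Pou4f3 and Eya1, at 0.29.

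The family members of the 8 factors differed in whether they were detected at all. Of 11 family members, 6 passed the filter on low counts. Eya4, in which mutations cause hearing loss, had 370 ± 49.0 in IHCs and 394 ± 54.2 CPM in OHCs (SD, n = 6), and its log2 fold change was 0.09 (SE 0.17, edgeR adjusted p = 0.799). Eya2 was higher in IHCs, with 19.6 CPM to 187 CPM and a median of 32.1 CPM in IHCs against 4.70 CPM to 12.7 CPM and a median of 10.4 CPM in OHCs. Its log2 fold change of -2.66 (SE 0.52, edgeR adjusted p = 0.00340) became -1.89 without IHC replicate 1, and the groups did not overlap. Eya3 had 37.5 ± 30.7 in IHCs and 14.4 ± 11.5 CPM in OHCs and did not pass the test (adjusted p = 0.177). Pou4f1, Lhx4 and Gata2 had means under 10 CPM in both cell types and were not called, at adjusted p of 0.488, 0.164 and 0.479. Atoh7, Pou4f2, Gfi1b, Barhl2 and Nhlh2 had means of at most 0.101 CPM in either cell type and were not tested.

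In the otic placode network around EYA1, Eya2 and Sox2 were higher in IHCs. Sox2, a prosensory factor that supporting cells keep, ran from 30.3 CPM to 102 CPM in IHCs (median 75.4 CPM) and from 14.9 CPM to 37.5 CPM in OHCs (median 26.4 CPM), with a log2 fold change of -1.42 (SE 0.34, edgeR adjusted p = 0.0142). Six4 had 241 ± 102 CPM and 237 ± 57.6 CPM (SD, n = 6), with an adjusted p of 0.969, and Pax2, Dach1 and Six2 did not pass the test either.

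Supporting cell markers were read beside these genes. Of 13 markers, Gjb2, which encodes the gap junction protein connexin 26, and Sox2 were higher in IHCs, Prox1 was higher in OHCs, and 10 did not pass the test. Their summed level was 342 CPM to 820 CPM in IHC libraries and 339 CPM to 575 CPM in OHC libraries. Prox1 is also counted among the OHC markers, and without it the sum was higher in IHCs, at 335 CPM to 790.4 CPM (median 450.2 CPM) against 177 CPM to 369 CPM (median 292 CPM). The mean sums were then 504 CPM in IHCs and 276 CPM in OHCs, to which Gjb2 alone gave 216 ± 127 and 30.3 ± 21.1 CPM (SD, n = 6). Of the 12 markers left, 8 had a negative log2 fold change. Fgfr3 went the other way, with 16.8 ± 27.9 in IHCs and 73.1 ± 3.47 CPM in OHCs (edgeR adjusted p = 0.0722). Sox2, Eya1 and Gata3 are also active in supporting cells and the prosensory epithelium, and the part of other cells in their levels was not tested. In bulk pools, more of another cell type and more RNA per cell cannot be told apart.

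Of the 13 genes for bHLH partners and inhibitors, all tested, 1 was called. Heyl, a Notch effector, ran from 35.6 CPM to 215 CPM in IHCs and from 1.31 CPM to 35.6 CPM in OHCs. The groups came close without overlapping, and the log2 fold change was -2.73 (SE 0.58, edgeR adjusted p = 0.00697). The E proteins, with which ATOH1 and NHLH1 pair on DNA, were not called: Tcf4 had 157 ± 44.6 in IHCs and 209 ± 61.9 CPM in OHCs, Tcf12 had 62.9 ± 40.3 CPM and 63.0 ± 24.5 CPM, and Tcf3 had 81.0 ± 56.8 CPM and 39.7 ± 19.5 CPM (SD, n = 6). Their adjusted p were 0.353, 0.997 and 0.132. Hes5 and Hes1, the repressors of Atoh1 in supporting cells, had means of at most 20.2 CPM and were not called.

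Of 8 tested LIM domain partners of LHX3 and 8 tested cofactors of GFI1 and GATA3, 0 were called at the threshold by edgeR's quasi-likelihood test. Lmo4, a LIM-only protein, had 183 ± 49.1 in IHCs and 116 ± 56.8 CPM in OHCs, with an unadjusted p of 0.0310 and an adjusted p of 0.178, and it was the 1 gene of these lists with an unadjusted p under 0.05 other than Lhx4. DESeq2 and the fit with a replicate block called Lhx4 higher in OHCs. Kdm1a, the histone demethylase that GFI1 recruits, had 99.5 ± 35.1 CPM and 118 ± 25.7 CPM (SD, n = 6), with an adjusted p of 0.614.

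Among 10 genes described as downstream of ATOH1 or POU4F3, Anxa4 was the 1 gene called, and in the direction opposite to that of Gfi1 and Gata3. Anxa4, which encodes a calcium-dependent membrane-binding annexin, ran from 253 CPM to 559 CPM in IHCs with a median of 422 CPM, and from 741 CPM to 1300.5 CPM in OHCs with a median of 1016 CPM. The OHC libraries all exceeded the highest IHC library, and the log2 fold change was 1.34 (SE 0.20, edgeR adjusted p = 3.49e-04). Rasd2, at 789.6 ± 182 in IHCs and 898 ± 181 CPM in OHCs, and Caprin1, at 324 ± 74.1 CPM and 309 ± 36.6 CPM (SD, n = 6), did not pass the test, with adjusted p of 0.620 and 0.870. Dll1, a Notch ligand of new hair cells, had 52.0 ± 18.9 CPM and 25.8 ± 11.3 CPM, with an adjusted p of 0.112 that was 0.0418 with DESeq2.

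**Figure D5:**
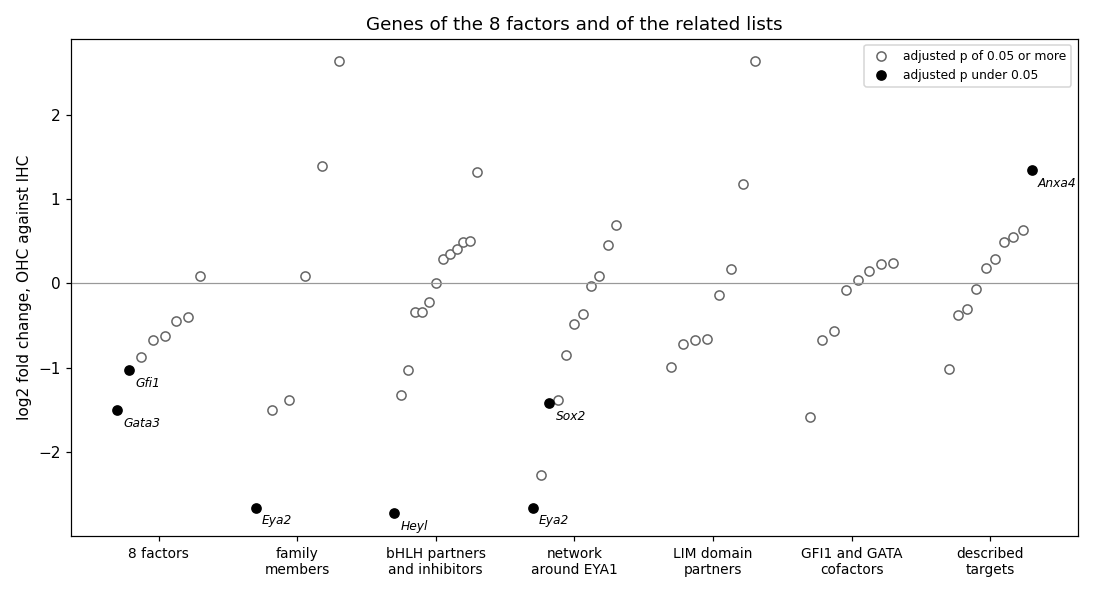
Log2 fold change of OHCs against IHCs (vertical axis) for genes tested among the 8 factors and 6 related lists, each point being 1 gene. Filled points passed the threshold, and Anxa4 (1.34) is the 1 filled point above 0, and a gene that stands in several lists, such as Eya2, is drawn in each.

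The general hair cell markers gave the 8 factors a comparison within the same cells. Of 15 marker genes, 5 were higher in IHCs, 0 were higher in OHCs and 10 did not pass the test, and the median log2 fold change was -0.49. The list includes Otof and Slc17a8, which also stand among the 4 IHC markers. Without them, 3 of 13 were higher in IHCs and 0 higher in OHCs, and the median was -0.29. Myo7a had 676 ± 189 in IHCs and 482 ± 31.7 CPM in OHCs (SD, n = 6), and its log2 fold change was -0.49 (edgeR adjusted p = 0.131). Myo6, another hair cell myosin, lay on the other side, with 2277 ± 217 CPM and 3162 ± 316 CPM and a log2 fold change of 0.47 (edgeR adjusted p = 0.0650). The summed level of the 15 markers was 8544 CPM to 11271 CPM in IHC libraries and 7515 CPM to 8952 CPM in OHC libraries. Without Otof and Slc17a8 the sums overlapped, with 6719 CPM to 7473 CPM in IHC libraries and 6987 CPM to 8484 CPM in OHC libraries. The mean sums were then 7092 CPM in IHCs and 7951 CPM in OHCs, to which Myo6 alone gave 2277 and 3162 CPM. Of the 13 genes left, 8 had a negative log2 fold change. The sum over the 8 factors was 2445 CPM to 4342 CPM in IHC libraries and 1833 CPM to 2574 CPM in OHC libraries.

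Markers of other cell types also differed between the pools. Of 8 endothelial markers, 7 were tested and 6 were higher in OHCs, with summed levels of 0.392 CPM to 13.0 CPM in IHC libraries and 14.5 CPM to 195 CPM in OHC libraries. Of 9 markers of spiral ganglion neurons, 3 were higher in IHCs, Nefl, Nefm and Snap25, while the defining neuronal genes Neurod1, Neurog1, Prph, Tubb3 and Slc17a6 did not pass the filter on low counts. The summed level of the neuronal list was 1049 CPM to 1734 CPM in IHC libraries and 347 CPM to 528 CPM in OHC libraries. Of the tested markers of the greater epithelial ridge (5 of 8), mesenchyme (5 of 8), glia (3 of 6) and macrophages (1 of 6), 0 were called, with Col3a1, Lum, Sox10 and C1qb at an unadjusted p under 0.05, and 0 of 7 erythroid markers were tested. The summed mesenchyme level did not overlap, at 33.9 CPM to 58.0 CPM in IHC libraries and 7.22 CPM to 21.9 CPM in OHC libraries. The 5 tested mesenchyme genes had negative log2 fold changes with a median of -1.41, the direction of Gata3 and Gfi1. All tested genes of the greater epithelial ridge (median -0.45), glia (median -1.34) and macrophage (-2.17) lists were negative too. The part of these cells in the levels of the 8 factors was not tested.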

How the data were processed

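Per the labels, ribosomal RNA was removed before random hexamer priming and amplification of cDNA, and no molecular identifiers are mentioned, so counts can include amplification copies. The submitters' processing notes name Trimmomatic, STAR and HTSeq and the build GRCm39 (mm39), and the methods name GENCODE vM27 and the intersection-nonempty counting mode. Tool versions and the strand setting are not given in the sources used here. The authors deposited raw counts per gene, 1 file per library, with HTSeq summary lines for reads not assigned to a gene. These lines held 24.2% to 46.1% of all counts of a library and were left out of library sizes and tests.

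The 8 genes and the lists were chosen with earlier results of these data known. The text names the 8 genes, their family members, related genes past the threshold, marker genes, and for Gfi1, Gata3, Atoh1 and Pou4f3 the genes nearest in profile, at most 3 each. Other list genes that did not pass the threshold were picked after their values were seen. Genes were kept by filterByExpr (minimum count 10, minimum total count 15) and compared by edgeR 4.0.16 in R 4.3.3 (TMM, glmQLFit, glmQLFTest; Benjamini-Hochberg threshold 0.05). The standard error is the size of the log2 fold change divided by the root of F. Log2 CPM used a prior count of 2. Positions and exon lengths are those of GENCODE vM39, which holds 98.8% of the identifiers. P-values measure the spread between these pools, which carry no label for litter or day. Alternatives were RLE scaling, DESeq2 1.42.0, edgeR's exact test, 2 other filters, leaving out ribosomal RNA, a replicate block and leaving out each library. Protein sequences were not used here, and some results are not reported here.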

Additional observations from a re-analysis of the deposited data

Results flagged for a closer look

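The CPM values of the 8 genes were examined in 16 groups of 6 libraries for a single library far from the others, which chance flags in about 1 in 20 groups, and 2 groups were flagged. Atoh1 in IHC replicate 1 was at 541 CPM, where the next highest IHC library was at 320.5 CPM, a gap of 0.700 of the range of the group. Barhl1 in OHC replicate 5 was at 205 CPM, where the next highest OHC library was at 143 CPM, a gap of 0.686 of the range.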

How the results depend on the processing

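Gata3 and Gfi1 were called under each of the 7 alternatives and with each of the 12 libraries left out, with adjusted p up to 0.00184 and 0.0313. Atoh1, Pou4f3, Lhx3 and Nhlh1 were called under none of them. Eya1 was called with DESeq2, with a log2 fold change of -0.45 and an adjusted p of 0.0125, and not under the others. With 1 library left out, log2 fold changes ran from -1.04 to -0.50 for Barhl1, called without IHC replicate 2, and from -0.026 to 0.29 for Nhlh1, negative without IHC replicate 6 or OHC replicate 5 (-0.018). Over all genes, DESeq2 called 1339 genes higher in IHCs and 1590 in OHCs, no filter on low counts called 893 and 918, and the exact test called 517 in OHCs, against 506 and 324. The share on the IHC side was 45.7% and 49.3% in the first 2, against 61.0%, and the median over all genes moved by 0.15 in both, where low genes enter. With the replicate block, 512 and 391 genes were called, and the 8 genes had the same calls. Same-numbered libraries did not deviate together (correlations of -0.031 to 0.018 over 13269 genes). Each of the 6 IHC libraries correlated best with an OHC library of another number, but these correlations were small too, at most 0.053. The labels do not say whether same-numbered pools share pups, and correlations this small cannot decide it. For other pools, used for chromatin accessibility (ATAC-seq), the methods state that each pup gave both cell types. The main fit was planned without a replicate block, and a pairing of the RNA pools, if there was one, is not used in it. Of the related genes, 2 were called higher in OHCs with DESeq2 and with the replicate block, against 1, Lhx4 being the second. On the longest transcript 4 genes kept their place in the IHC order and 2 in the OHC order. The cause of these changes was not tested.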
